A study of Mus musculus and Homo sapiens
Mus musculus with 12 samples.

Results

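The glycine receptor subunit genes Glra1, Glra2, Glra3 and Glrb were followed across the nuclei of the mouse brain, above all in subcortical neurons against cortical and striatal neurons. These 4 genes, chosen by their symbols, were 4 of the 34496 genes listed in 7 brain libraries, and all 4 passed the filter on low counts in every comparison. The nuclei came from brains of wild-type C57BL/6J male mice, young adults by the study's methods, and no allele or drug distinguished the libraries. The brain tissue was frozen in 4 libraries and fresh in 3, and crossed with this the random reverse transcription primer was used without a preindex in 4 libraries (2 frozen, 2 fresh) and with a preindex in 3 (2 frozen, 1 fresh). Each library was taken as 1 replicate. The labels do not say whether libraries came from separate animals, so the p-values measure the spread between libraries, which may be technical.

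Libraries were made by snHH-seq, a droplet method that primes total nuclear RNA with random primers and therefore reads introns and non-polyadenylated RNA along the whole gene. Each count is a unique fragment identifier (UFI), 1 captured fragment of 1 transcript, so a long gene collects more UFIs than a short one at the same number of transcripts. Levels are given in CPM, a gene's UFIs per 1000000 UFIs of the same nuclei in the same library. The 7 files held 11198 nuclei and 180739290 UFIs, with 8605214 to 42439731 UFIs per library and a median of 9011 to 27543 UFIs per nucleus. Barcodes shared between libraries numbered 32 over 21 pairs of libraries and at most 10 in any pair. For 4 libraries the title and the treatment field name opposite primers; titles were used, and the libraries titled preindex were those with the longer barcodes.

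Glycine receptors are pentameric chloride channels that open when glycine binds, and they carry fast inhibition in the spinal cord, brainstem and retina. An α subunit, encoded by Glra1, Glra2 or Glra3, forms most of the glycine binding site and sets the kinetics and drug sensitivity of the channel. The β subunit, encoded by Glrb, joins α subunits in the synaptic receptor and binds gephyrin, the scaffold that holds the channel under the glycine-releasing terminal. Glra1 is known as the α subunit of the adult brainstem and spinal cord, in which its loss of function causes startle disease. Glra2 is known as the subunit of the immature nervous system with a lasting forebrain expression, and Glra3 as a subunit of pain-processing circuits.

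The genes differ in length, which bears on every comparison between them. On mouse build GRCm38 (GENCODE annotation), Glra1 spans chr11:55514238-55608198 on the minus strand, 94.0 kb, and Glra2 spans chrX:165129017-165327393 on the minus strand, 198.4 kb. Glra3 lies at chr8:55940460-56130070 on the plus strand, 189.6 kb, and Glrb at chr3:80843599-80913660 on the minus strand, 70.1 kb. Since introns were counted, levels of different genes are compared below only per kb of these spans. Glra1 overlaps an antisense gene and a processed pseudogene on the opposite strand and Glra3 overlaps 2 such pseudogenes. The study describes UFI counting as strand-specific, which would keep such partners apart; the strand setting of the read counter for these files is not given in the sources used here, and a count taken without strand would add reads of the partners to Glra1 and Glra3. No gene overlaps Glra2 or Glrb.

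The coding sequences show how near the 4 genes are to each other, which bears on whether a fragment can be placed in the wrong member. Among the α subunits, 74.2% to 76.1% of aligned coding bases were identical, against 62.0% to 65.4% between an α subunit and Glrb. The longest identical stretches between α subunits were 25 to 26 bases, and those to Glrb 11 to 14 bases.

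The window around the longest stretch shared by all 3 α genes is shown for Glra1, Glra2 and Glrb, read on the coding strand of exon 7 of the α genes and exon 8 of Glrb. Capitals mark bases that match the base shared by Glra1, Glra2 and Glra3.
Glra1, chr11:55527368-55527427, minus strand: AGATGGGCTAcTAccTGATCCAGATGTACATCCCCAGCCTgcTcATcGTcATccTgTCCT
Glra2, chrX:165252333-165252392, minus strand: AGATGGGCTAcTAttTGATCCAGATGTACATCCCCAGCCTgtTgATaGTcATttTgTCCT
Glrb, chr3:80855836-80855895, minus strand: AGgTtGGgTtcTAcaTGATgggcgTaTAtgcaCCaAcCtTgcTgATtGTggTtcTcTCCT
Of the 60 bases, 49 were shared by the 3 α genes, in a core of 25 unbroken bases, while Glrb matched 31 of the 60. Reads that mapped to more than 1 place were dropped by the authors.

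Nuclei were clustered into 27 groups without the 4 members and 15 other genes of glycine signalling, and classes were named from markers. The subcortical class held 2063 nuclei from all 7 libraries: a thalamic-like cluster of 367 nuclei, in which all 6 of its markers stood out and which was led by Abhd12b, Lef1 and Synpo2, and a mixed cluster of 1696 nuclei led by Baiap3, Ebf3, Rmst and, though left out of the clustering, Glra3, in which 5 of 11 markers of subcortical glutamatergic neurons stood out. Over the whole subcortical class the 11 subcortical glutamatergic markers summed to 444.5 CPM, against 32.1 in cortical excitatory nuclei, and the 11 subcortical GABA markers to 204 against 8.43. The latter list did not separate the class from GABA neurons of the telencephalon, in which it summed to 262 (medium spiny) and 425 (interneurons). Markers of cortical excitatory neurons summed to 641 in the subcortical class and 1268.5 in the cortical one. The mixed cluster was divided by transmitter genes after the clusters had been seen: 823 nuclei with UFIs of the GABA genes Gad2 or Slc32a1 only, 576 with UFIs of the vesicular glutamate transporter gene Slc17a6 only, 154 with both and 143 with neither. Of the first and second set, 97 and 104 nuclei rest on a single transmitter UFI. Slc32a1 is also among the 15 genes of glycine signalling, so the first set, called GABA here, was not defined apart from glycine. The cells compared with them were 4379 cortical-excitatory-like, 1428 striatal-medium-spiny-like, 1016 telencephalic-interneuron-like and 417 dentate-granule-like nuclei. A further 971 nuclei in 4 clusters stayed unnamed. Both frozen preindex libraries also held a cluster of 483 nuclei with all 8 kidney tubule markers (10.7% and 11.7% of the library), which served as cells that should lack the receptor.

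Glra1 marked the subcortical neurons. Its level in the subcortical class ran from 20.5 to 67.6 CPM over the 7 libraries with a median of 44.1, and in the cortical excitatory class from 0.943 to 1.81 with a median of 1.04. The lowest subcortical library lay above the highest cortical one by an order of magnitude. Striatal medium spiny neurons had 0.220 to 3.60 (median 0.574), telencephalic interneurons 1.56 to 3.72 (median 2.19) and dentate granule neurons 0 to 1.98 (median 0.576). Kidney-tubule-like nuclei had 0.850 and 0.947 in their 2 libraries, so the cortical, striatal and dentate levels stood near that of cells that should lack the gene. In the subcortical class the mean was 41.4 ± 15.4 (SD, n = 7), the widest relative spread of the 4 members.

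**Figure D1:**
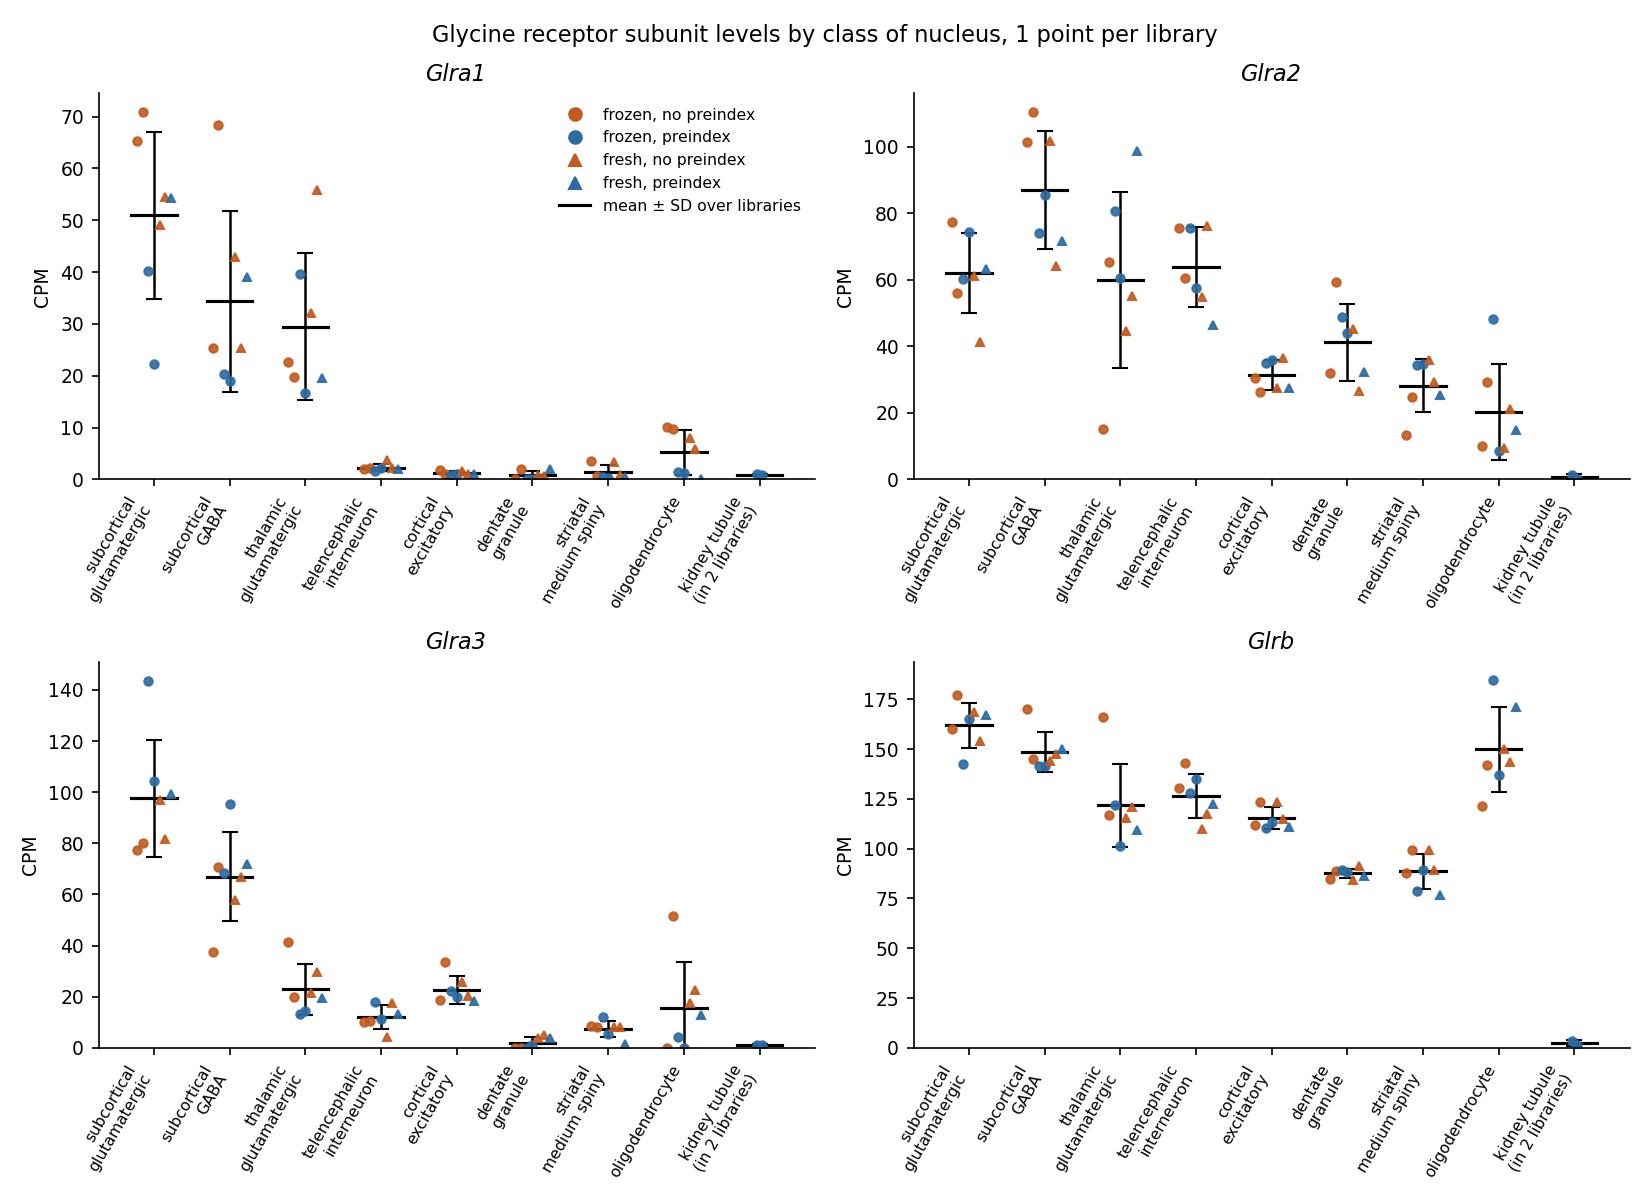
Level of each subunit gene in CPM (vertical axis, linear, from 0) by class of nucleus (horizontal axis). Each point is 1 library, coloured by primer and shaped by storage, and bars give the mean ± SD. Glra1 lies between 16.7 and 70.9 in the subcortical glutamatergic, subcortical GABA and thalamic groups. It lies at 3.72 or below in every library of the interneuron, cortical, dentate and medium spiny classes. Glrb lies at 76.7 or above in every library of the neuronal classes shown.

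Glra3 was likewise higher in the subcortical class as a whole than in each class of telencephalic neurons. Its thalamic-like cluster, at a mean of 22.9 CPM, did not differ from cortical excitatory neurons (22.7) beyond the spread. The subcortical class had 60.6 to 79.5 CPM (median 65.2, mean 67.7 ± 6.97), the cortical excitatory class 18.4 to 33.5 (median 20.4), and the groups did not overlap. The share of all genes that separated in this way was not counted, for this or any other member. A lack of overlap therefore says little about a member by itself. Interneurons had 4.25 to 17.9 (median 11.3), medium spiny neurons 1.52 to 12.3 (median 8.03) and dentate granule neurons 0 to 5.19 (median 1.26). All 7 cortical values lay above the highest library of the interneurons, medium spiny and dentate neurons.

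Glra2 divided the brain in another way. The subcortical class ran from 55.6 to 78.7 CPM (median 76.3), cortical excitatory neurons from 26.3 to 36.6 (median 30.5) and medium spiny neurons from 13.2 to 36.0 (median 29.4). The first class did not overlap the others, a separation that was not counted over all genes. Interneurons, at 46.5 to 76.3 (median 60.6), overlapped the subcortical range. Dentate granule neurons had 26.5 to 59.3 (median 44.1), and in them Glra2 was nearly the only α subunit: per kb it made up 91.3% ± 8.75 of the summed α level (n = 7).

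Glrb was present in every class of brain nuclei. It ran from 136 to 168 CPM in the subcortical class (median 145), 110.2 to 123 in cortical excitatory neurons (median 114), 110 to 143 in interneurons (median 128) and 76.7 to 99.4 in medium spiny neurons (median 89.2). Oligodendrocyte-like nuclei had 121 to 184 (mean 149.9 ± 21.4), but markers of neurons summed there to 6765 CPM, against 11967 in the subcortical class and 66.3 in kidney-tubule-like nuclei, and the part of neuronal RNA in their Glrb level was not tested. Kidney-tubule-like nuclei had 1.27 and 3.31 and the 20 liver-like nuclei none.

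These differences were tested within libraries (edgeR's quasi-likelihood test with the library as a block, Benjamini-Hochberg adjusted over all genes tested). Against cortical excitatory neurons 3 of the 4 members were called, all of them higher in the subcortical class, while 52.9% of all 13956 genes tested were called in either direction. The log2 difference was 4.84 ± 0.13 for Glra1 (SE, adjusted p = 1.0e-11), 1.38 ± 0.11 for Glra3 (adjusted p = 1.0e-07) and 0.98 ± 0.10 for Glra2 (adjusted p = 2.5e-06). Glrb had 0.11 ± 0.05 (adjusted p = 0.080). With so many genes called, the calls of Glra2 and Glra3 say little by themselves; the order of the sizes, Glra1 far above Glra3 and Glra2 and these above Glrb, is given by the values themselves.

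The result for Glrb turned on the scale. The test uses trimmed mean of M-values (TMM) factors, which centre the median gene near 0 (0.01), while the levels printed above are relative to all UFIs of the class in a library. On the latter scale the median of all genes was 0.24 higher in the subcortical class, and 6737 genes were called higher and 2206 lower in place of 3787 and 3602. There Glrb differed by 0.34 (adjusted p = 3.3e-05), and Glra1, Glra2 and Glra3 by 5.07, 1.21 and 1.61. The Glrb ranges did not overlap, which was not counted over all genes. Relative to the median gene, Glrb stood 0.10 higher on the log2 scale under either scaling, and the 3 α genes lay above it under both.

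Within each primer and storage the α genes held the same order of size. The log2 difference of Glra1 was 5.02 in the 4 libraries without preindex and 4.61 in the 3 with it, 4.71 in frozen and 4.96 in fresh libraries. For Glra3 these 4 values were 1.17, 1.62, 1.36 and 1.42, and for Glra2 they lay from 0.96 to 1.00. No interaction of class with primer or storage was called for any member over 24 tests (lowest adjusted p = 0.39 by edgeR, for Glra3 with primer, which had an unadjusted p of 0.015; the only other unadjusted p under 0.05 was 0.031, for Glra3 with primer against medium spiny neurons). Over all genes a called interaction with primer was found for 0.265% in the cortical, 0.952% in the medium spiny and 0.0946% in the interneuron comparison, and with storage for 0.0143%, 0.0851% and 0%. When single nuclei were assigned to classes by marker UFIs instead of by cluster, the differences were smaller, 3.20 for Glra1, 0.78 for Glra3 and 0.66 for Glra2, and the cortical Glra1 level was 4.30.

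Against striatal medium spiny neurons all 4 members were higher in the subcortical class, and 54.6% of all 12920 genes tested were called. Glra1 differed by 5.03 ± 0.23 on the log2 scale (adjusted p = 6.0e-11), Glra3 by 3.05 ± 0.19 (adjusted p = 2.1e-09), Glra2 by 1.05 ± 0.11 (adjusted p = 1.3e-06) and Glrb by 0.47 ± 0.06 (adjusted p = 7.5e-06). The Glra3 difference exceeded that against cortical neurons (1.38), an order that was not tested and that turned with marker assignment of single nuclei (0.59 against 0.78). On the scale of total UFIs the split of calls was 5882 higher and 2090 lower in place of 3670 and 3382, and the median gene stood at 0.27. With marker assignment of single nuclei the Glra2 difference was 0.28 (adjusted p = 0.12) and that of Glra1 2.14, with Glra2, Glra1 and Glra3 at 45.7, 9.44 and 26.3 CPM in the medium spiny class.

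Against telencephalic interneurons 2 of the 4 members were called, where 31.4% of all 12682 genes tested were. Glra1 was higher in the subcortical class by 3.95 ± 0.16 (adjusted p = 1.6e-11) and Glra3 by 2.33 ± 0.14 (adjusted p = 2.7e-09). Glra2 differed by 0.11 ± 0.12 (adjusted p = 0.52) and Glrb by 0.12 ± 0.06 (adjusted p = 0.19). Without the second fresh library made without preindex, in which the subcortical Glra2 level was 55.6 and every other library's at least 73.2, Glra2 was called at 0.27 (adjusted p = 0.047). On the scale of total UFIs Glrb was called at 0.21 (adjusted p = 0.018) and the split of all calls was 2936 higher and 1400 lower in place of 2111 and 1869. With marker assignment the differences were 1.66 for Glra1 and 0.76 for Glra3.

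**Figure D2:**
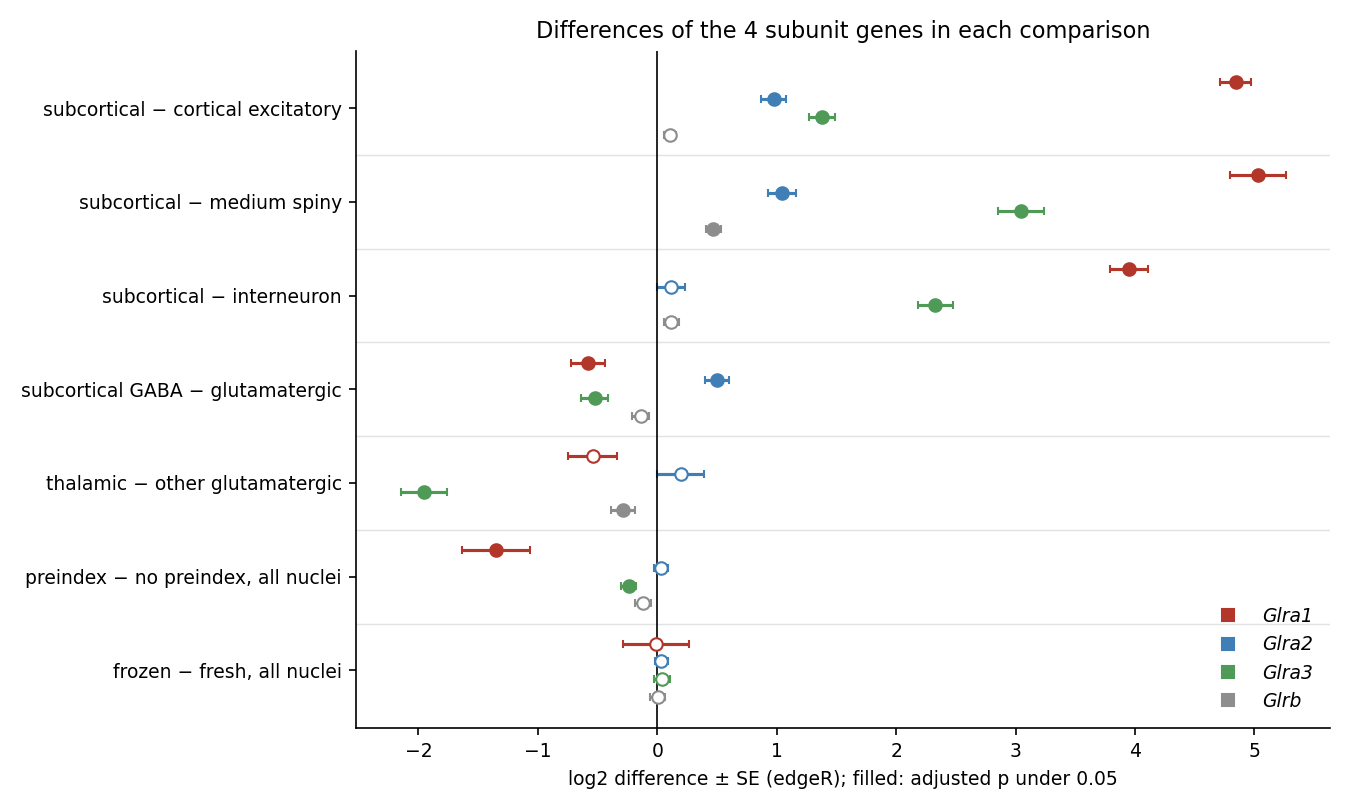
Log2 difference ± SE (horizontal axis, edgeR with TMM scaling) of the 4 genes in each comparison (vertical axis); positive values are higher in the group named first, and filled points have an adjusted p under 0.05. Glra1 lies between 3.95 and 5.03 in the 3 comparisons of the subcortical class with telencephalic neurons, while Glrb lies at 0.47 or below in all 7 comparisons.

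Within the mixed subcortical cluster the α subunits differed by transmitter. In the GABA nuclei Glra1 had 18.9 to 68.4 CPM (median 25.4) and in the glutamatergic nuclei 22.2 to 70.9 (median 54.4). The ranges overlapped, but the glutamatergic value was the higher one in 7 of 7 libraries. Glra3 had 37.4 to 95.5 (median 68.3) in GABA and 77.5 to 144 (median 96.8) in glutamatergic nuclei, again higher in the latter in 7 of 7 libraries. Glra2 went the other way, with 64.2 to 110.5 (median 85.6) in GABA and 41.4 to 77.5 (median 61.1) in glutamatergic nuclei. Glrb had 141 to 170.3 (median 145) and 142 to 177 (median 165).

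By the test 3 of the 4 members differed between GABA and glutamatergic nuclei, where 4.81% of all 11029 genes tested were called. The log2 difference, GABA against glutamatergic, was −0.58 ± 0.14 for Glra1 (adjusted p = 0.020), −0.52 ± 0.11 for Glra3 (adjusted p = 0.0067) and 0.50 ± 0.10 for Glra2 (adjusted p = 0.0053), and Glrb had −0.14 ± 0.07 (adjusted p = 0.37). The Glra1 call was the least stable. It was lost under 7 of 14 alternatives, among them DESeq2 (adjusted p = 0.067) and clusters at the finer resolution (−0.31, adjusted p = 0.40), and when 1 of 3 libraries was left out. These were the first frozen library without preindex (−0.51, adjusted p = 0.053), the first frozen one with it (−0.53, adjusted p = 0.051) and the second fresh one without it (−0.46, adjusted p = 0.11). The other alternatives without a Glra1 call were no block for the library (adjusted p = 0.31) and thinned nuclei (adjusted p = 0.42). Glra3 kept its call under 13 of 14 alternatives and Glra2 under 12, both losing it when the library was not a block (adjusted p = 0.14 and 0.11), and Glra2 also with thinned nuclei (adjusted p = 0.088).

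Thalamic-like nuclei stood apart by Glra3. Their Glra3 level was 13.2 to 41.6 CPM (median 19.8), below the 77.5 of the lowest library of the other subcortical glutamatergic nuclei and within the cortical range at its median. Glra1 had 16.7 to 55.8 (median 22.7), Glra2 15.1 to 98.6 (median 60.6) and Glrb 101 to 166 (median 117). In this comparison, which was added after the clusters had been seen, 2 of the 4 members were called lower in thalamic-like nuclei, where 32.9% of all 9421 genes tested were called. The log2 difference was −1.95 ± 0.19 for Glra3 (adjusted p = 7.1e-07) and −0.29 ± 0.10 for Glrb (adjusted p = 0.035), while Glra1 had −0.54 ± 0.20 (adjusted p = 0.052) and Glra2 0.20 ± 0.20 (adjusted p = 0.51). The Glra3 difference was −0.42 (adjusted p = 0.56 by edgeR) when nuclei were assigned by markers one by one. That fit had only 6 sums of a library and class in place of 14, and 5781 genes tested. Glrb kept its call under 6 of 15 alternatives and Glra1 gained one under 5. The Glrb call was lost without either fresh library made without preindex, the fresh preindex library, the second frozen library without preindex or the second frozen one with it (adjusted p from 0.059 to 0.10). Glra1 was called without the second fresh library made without preindex (−0.79, adjusted p = 0.0084) and without the first frozen preindex library (−0.63, adjusted p = 0.036). On the scale of total UFIs the split of calls was 1114 higher and 2405 lower in place of 1549 and 1554, with Glra1 at −0.70 (adjusted p = 0.013).

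The order of the classes followed from these levels, with neighbours compared library by library. For Glra1 the order was subcortical glutamatergic (50.9 ± 16.2), subcortical GABA (34.3 ± 17.5), thalamic (29.5 ± 14.2) and then, after a gap of 24.3 ± 14.7, oligodendrocyte-like nuclei at 5.20 ± 4.30 and the telencephalic neurons. The GABA and thalamic levels did not differ beyond their spread, nor did any neighbours from the oligodendrocyte-like nuclei downward. For Glra3 the steps from subcortical glutamatergic (97.6) to GABA (66.9), from there to thalamic-like nuclei (22.9) and from medium spiny (7.42) to dentate neurons (2.04) exceeded the spread, while thalamic-like nuclei and cortical neurons (22.7) did not differ beyond it. For Glra2 the only step beyond the spread was the first, from subcortical GABA (87.1) to interneurons (63.9), and it held in 5 of 7 libraries. For Glrb steps beyond the spread fell between subcortical GABA (148.5) and interneurons (126.5) and between cortical (115.5) and medium spiny neurons (88.6), and not between medium spiny and dentate neurons (87.6).

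Per kb of gene span, Glrb exceeded each α subunit in every named class of neurons. In subcortical glutamatergic nuclei Glrb had 2.31 ± 0.16 CPM per kb, Glra1 0.542 ± 0.172, Glra3 0.515 ± 0.120 and Glra2 0.313 ± 0.060. Subcortical GABA nuclei had 2.12 ± 0.14 for Glrb and from 0.353 to 0.439 for the 3 α genes, which stood within 1 SD of each other. In cortical excitatory neurons the values were 1.65 ± 0.08 for Glrb, 0.158 for Glra2, 0.120 for Glra3 and 0.0128 for Glra1. As a share of the summed α level, Glra1 made up 39.2% ± 11.2 in subcortical glutamatergic, 30.3% ± 8.86 in subcortical GABA and 41.4% ± 11.6 in thalamic-like nuclei, against 4.47% ± 1.45 in cortical excitatory neurons, 7.88% ± 8.91 in medium spiny neurons and 6.22% ± 2.67 in interneurons. Glra2 made up 54.6% of it in cortical excitatory neurons, 72.3% in medium spiny neurons and 78.4% in interneurons.

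The ratio of Glrb to the summed α level per kb was 1.70 ± 0.21 in subcortical glutamatergic nuclei, 1.90 ± 0.41 in subcortical GABA and 2.51 ± 0.92 in thalamic-like nuclei. It was 4.51 ± 0.81 in interneurons, 5.70 ± 0.43 in cortical excitatory, 5.81 ± 1.42 in dentate granule and 6.70 ± 1.45 in medium spiny neurons. The highest subcortical glutamatergic library had a ratio of 2.03 and the lowest cortical one 5.18. These ratios concern nuclear fragments including introns and say nothing of the number of subunits in a receptor.

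**Figure D3:**
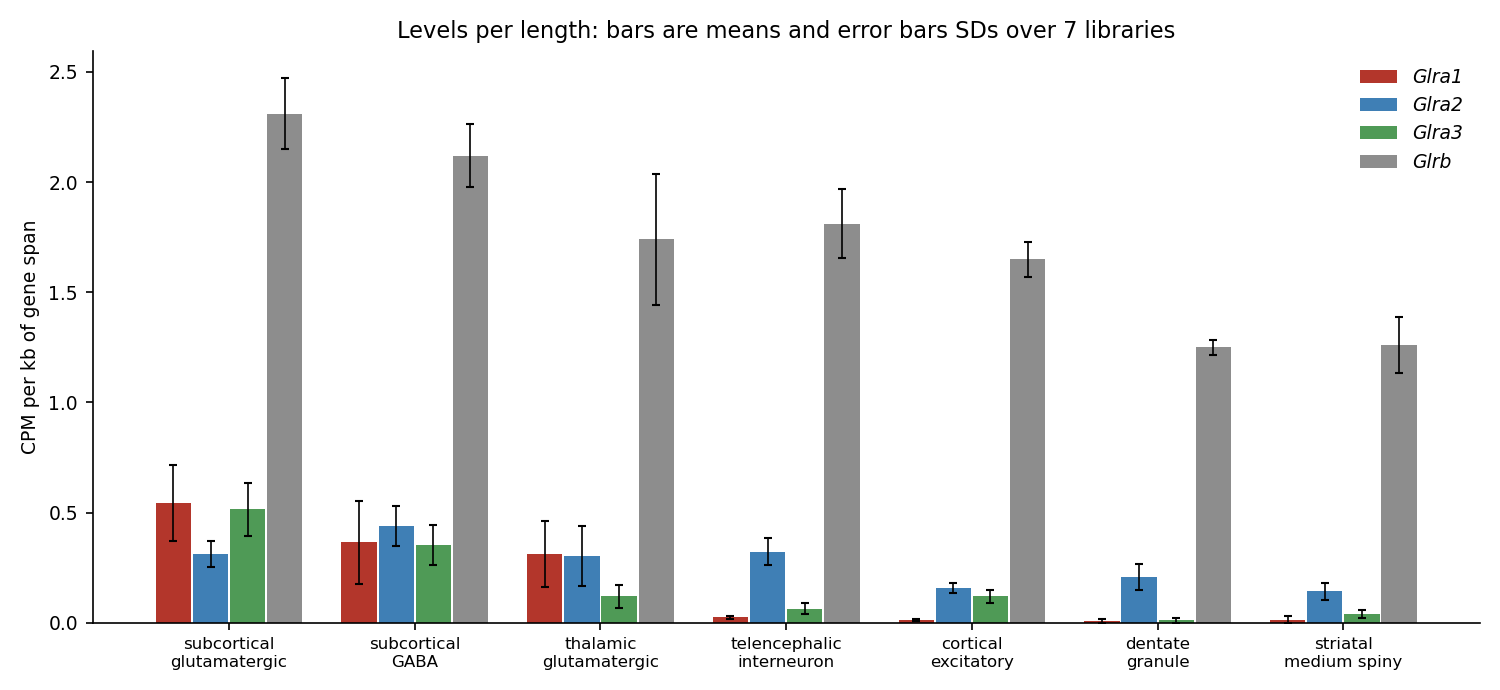
Mean level of the 4 genes in CPM per kb of gene span (vertical axis, linear, from 0) in 7 classes of neurons (horizontal axis), with SDs over 7 libraries as error bars. Glrb is the tallest bar in each class, from 1.25 in dentate granule to 2.31 in subcortical glutamatergic nuclei, and Glra1 rises above 0.3 in the 3 subcortical groups only among the classes shown.

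Counted by nucleus the same contrast appeared. With each nucleus thinned to 3000 UFIs, 9.12% of subcortical nuclei had a Glra1 UFI (188 of 2062, exact binomial interval 7.91% to 10.4%), against 0.457% of cortical excitatory (0.279% to 0.704%), 0.210% of medium spiny and 0.788% of interneuron nuclei. The share in kidney-tubule-like nuclei was 0.207% (1 of 483, 0.00524% to 1.15%). That interval covers the cortical, striatal and interneuron shares, which could not be told from it at this depth. The kidney-tubule-like nuclei came from the 2 frozen preindex libraries only. For Glra3 the shares were 15.6% in subcortical, 5.00% in cortical excitatory, 1.33% in medium spiny and 0.414% in kidney-tubule-like nuclei. Glra2 was found in 16.0% of subcortical, 15.4% of interneuron, 8.18% of cortical excitatory and 7.70% of medium spiny nuclei, and in 0 of 483 kidney-tubule-like nuclei, which allows a share of nuclei with a UFI of up to 0.621% at this depth. Unthinned, 3 of the 483 had one. Glrb had 34.1% in subcortical, 30.5% in interneuron, 28.2% in cortical excitatory, 22.9% in medium spiny and 1.04% in kidney-tubule-like nuclei. Unthinned, the subcortical shares were 26.9% for Glra1, 39.6% for Glra2, 39.1% for Glra3 and 79.3% for Glrb at a median of 13682 UFIs. For Glra1 the unthinned share was 3.25% in interneurons (2.25% to 4.53%, median 12587 UFIs). In kidney-tubule-like nuclei it was 0.828% (0.226% to 2.11%, median 8761 UFIs), and the 2 intervals did not overlap. Oligodendrocyte-like nuclei had 3.85% (1.94% to 6.78%, median 11865 UFIs), an interval that covers the interneuron share. The interneuron share was therefore not set apart from that of these brain nuclei. The unthinned cortical excitatory (1.74%) and medium spiny (1.12%) shares lay within that kidney interval. Intervals and limits of this kind cover counting error only.

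UFIs of several subunits often fell in the same nucleus. At full depth 64.8% of subcortical glutamatergic nuclei had a UFI of Glrb and of at least 1 α subunit (373 of 576, median depth 13642 UFIs), as did 56.4% of subcortical GABA nuclei (median depth 12800) and 46.9% of thalamic-like nuclei (15752). The share was 27.7% in cortical excitatory (13375), 31.5% in interneuron (12587), 15.7% in medium spiny (11667) and 0.207% in kidney-tubule-like nuclei (8761). At least 2 α subunits were found in 37.7% of subcortical glutamatergic and 28.8% of GABA nuclei, in 21.5% of thalamic-like nuclei and in 4.50% of cortical excitatory nuclei. Glra1 with Glra3 was found in 18.1% of glutamatergic and 9.96% of GABA nuclei, while Glra2 with Glra3 was found in 21.2% and 19.6%. Glrb without any α UFI was the commonest state in the cortex, at 45.5% of excitatory nuclei against 18.6% of subcortical glutamatergic ones. Doublets were not removed, and depth limits each of these shares. Counted singly at full depth, UFIs of Glra1, Glra2, Glra3 and Glrb were found in 35.2%, 37.3%, 48.3% and 83.3% of subcortical glutamatergic nuclei. Genes found in many nuclei share some of them without any link between the genes. Whether the joint shares exceed that overlap was not tested, so they do not measure co-expression. They were not corrected for gene length either, so different gene pairs cannot be ranked by them.

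Among the 9 cortical excitatory clusters the levels of Glra2 and Glra3 spanned wider relative ranges than that of Glrb. Glra2 reached 118 CPM (53.5 to 137 over libraries) in a cluster of 705 nuclei led by RP24-279F18.1, Arhgap25 and Sulf1, in which Tle4, a marker of deep layers, had 867, and 109.9 in a smaller Tle4-high cluster led by Nxph3 and Myl4. In the cluster of 1204 nuclei in which Cux2, a marker of upper layers, had 630, Glra2 had 7.13 (2.62 to 15.9 over libraries). Glra3 had 34.6 in that cluster and 9.42 in the first Tle4-high one. The highest Cux2 level among the 9, 1006, was in a cluster of 102 nuclei led by Oprk1, Fap and Nr4a2, in which Glra2 had 35.4 and Glra3 11.5. The highest cortical Glra3 level was 42.3, in a cluster of 686 nuclei led by Igfn1, Gm13986 and Slc30a3. Glrb lay between 103 and 138 in 8 of the 9 cortical excitatory clusters and at 70.5 in the ninth, of 152 nuclei.

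Glra2 levels also differed among the GABA neurons of the telencephalon. The interneuron cluster led by Vip and Htr3a had 128 CPM (77.0 to 241 over libraries), the one led by Sst and Eya4 52.6 (38.2 to 73.8). In the striatal class the cluster led by Npffr2, Drd3 and Tshz1 had 109.9 (83.7 to 155 in 5 libraries with enough nuclei). The main striatal cluster of 1275 nuclei had 21.8 (11.9 to 27.4), and all 8 medium spiny markers stood out in it, Drd1 and Drd2 included. An unnamed cluster of 178 nuclei with Gad2 at 272, led by Ano1, Ano2 and Prdm16, had 80.0. These cluster levels were set side by side and not tested.

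**Figure D4:**
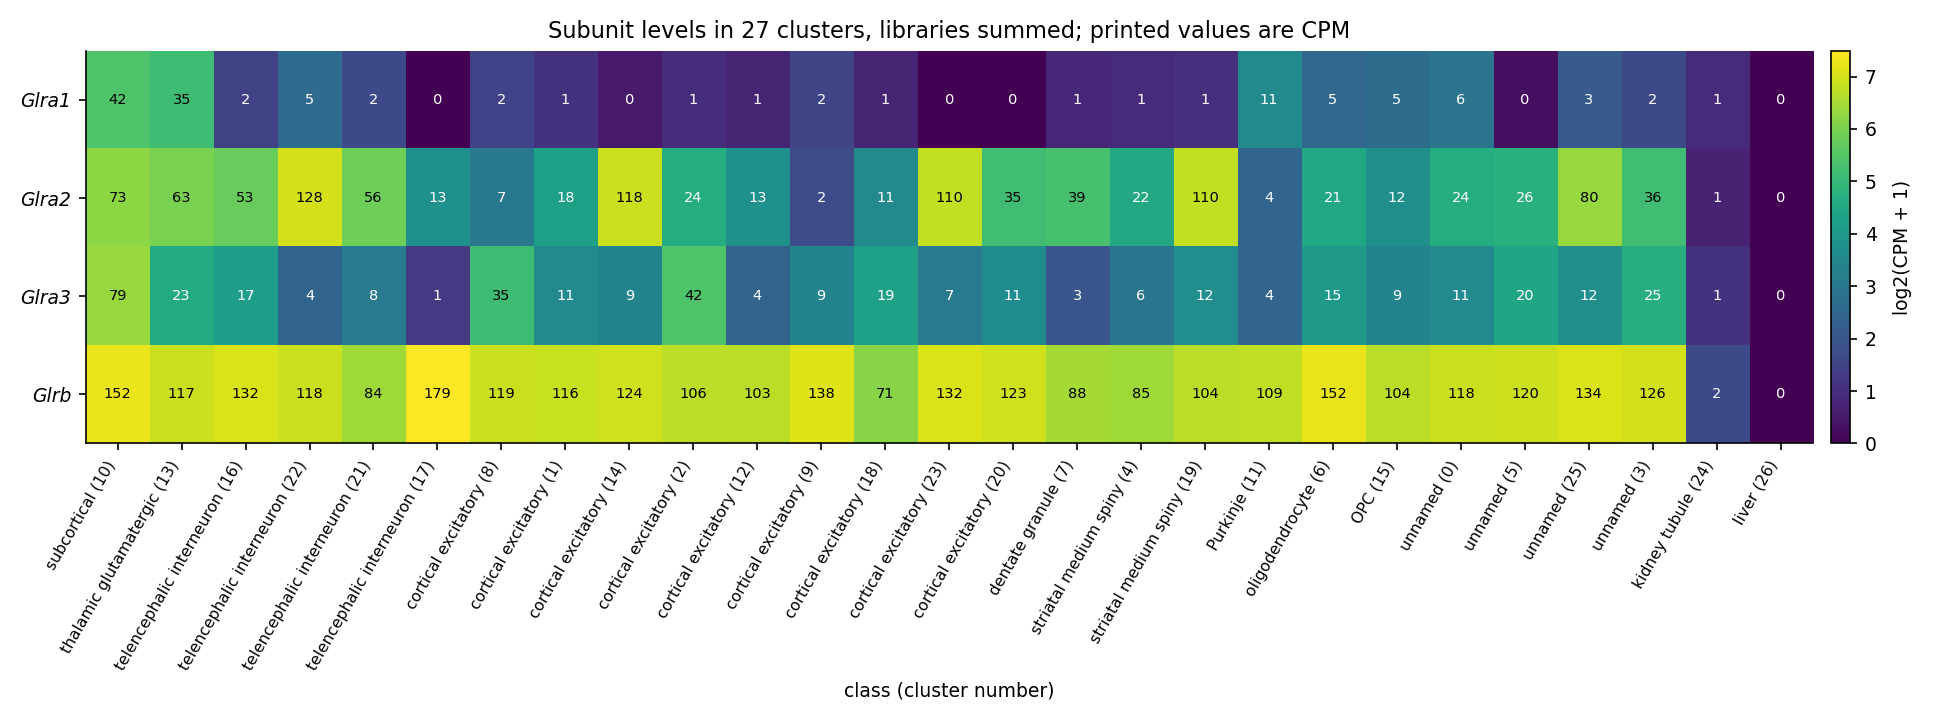
Level of the 4 genes (rows) in the 27 clusters (columns, named by class and cluster number), libraries summed; colour gives log2(CPM + 1) and the printed numbers CPM, rounded. Glra1 reaches 42 and 35 in the 2 subcortical clusters and at most 11 elsewhere, Glra2 exceeds 100 in cortical, interneuron and striatal clusters alike, and Glrb is at 70.5 or more in every cluster but the kidney-like and liver-like ones.

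At the finer resolution of 45 clusters small populations came to the top. Glra2 was highest in 18 nuclei led by Chat, Slc5a7 and Lhx8, genes of cholinergic neurons, with 400.4 CPM (167 UFIs, Poisson interval 342 to 466, counting error only) in nuclei of 7 libraries. Glrb had 83.9 in these 18 nuclei, below Glra2 also per kb of gene span, unlike in the named classes of neurons. Glra3 was highest in 24 nuclei led by Cyp19a1, Gldn and Esr2, the first encoding aromatase and the last an oestrogen receptor, with 128 (35 UFIs in 5 libraries, 89.4 to 178). These 24 nuclei were named telencephalic interneurons, with 3 of 9 markers standing out, and had Glra1 at 33.0 and Glra2 at 113.7. A cluster of 275 nuclei from 7 libraries that stayed unnamed, led by Trhr, Gm13986 and Ccdc3, had Glra3 at 72.7 (340 UFIs, 65.2 to 80.9), above the mean of the subcortical class. Glra1 was highest in 132 nuclei led by Cdh23, Tfap2b and Trim67, with 61.5 (104 UFIs, 50.3 to 74.5), and its Glra1 UFIs lay in 28 nuclei of 4 libraries. In that cluster 5 of 6 microglia markers and 4 of 6 markers of cerebellar granule neurons stood out, and 56 of its nuclei had been placed in the subcortical class. There the glycine transporter gene Slc6a5 summed to 68 UFIs, and its nuclei made up 5.57% and 5.88% of the 2 frozen libraries without preindex, 1.08% and 1.30% of the fresh ones and 0.161% to 0.435% of those with preindex.

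Over the 27 clusters the genes most like each member by the Pearson correlation of log2(CPM + 1), among 8441 eligible genes, were Zfp423, Lef1, Grid2ip, Amotl1 and Hsf1 for Glra1 (r from 0.75 down to 0.67) and Usp29, Oprm1, Dpysl5, Tmem130 and Lrrtm2 for Glra2 (0.83 to 0.80). For Glra3 they were Ralyl, Car10, Stard3nl, Radil and Gap43 (0.76 to 0.75), and for Glrb they were Elavl3, Kif1a, Brsk2, Brsk1 and Cntn1 (0.99 to 0.98). Oprm1 encodes the µ-opioid receptor, Elavl3 a neuronal RNA-binding protein and Kif1a a neuronal transport motor. The 27 clusters included the kidney-like and liver-like ones, in which Glrb had 2.24 and 0 CPM. Among the members themselves r was highest for Glra2 with Glrb (0.66) and lowest for Glra1 with Glra2 (0.20). The clusters share libraries and depth, so these values are descriptions.

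The other genes of glycine signalling, a list of 15, were measured in the same comparisons. Against cortical excitatory neurons 13 of the 15 were tested, of which 7 were higher and 2 lower in the subcortical class, where 52.9% of all genes were called (median log2 difference 0.20, against 0.01 over all genes). Slc6a5 encodes GlyT2, the transporter that marks glycine-releasing neurons, and had 0.214 to 24.4 CPM in the subcortical class (median 2.42) and 0 to 0.559 in the cortical one, a log2 difference of 3.67 ± 0.47 (adjusted p = 1.4e-05). The libraries without preindex held the 4 highest of the 7 subcortical values. Glra4, a further α gene, was near the limit of detection with 35 UFIs in the subcortical class, 26 of them in glutamatergic nuclei, and 7 in the larger cortical one (2.93 ± 0.57, adjusted p = 0.00062). The glial and neuronal glycine transporter gene Slc6a9 was higher by 0.53 ± 0.10 (adjusted p = 0.00072). Gphn, encoding gephyrin, differed by 0.20 against cortical excitatory and by −0.21 against medium spiny neurons, the latter turning to 0.04 (adjusted p = 0.46) on the scale of total UFIs, and Slc12a5, the neuronal chloride extruder, by 0.23 and 0.04.

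Against medium spiny neurons 4 of 13 tested list genes were higher and 5 lower, where 54.6% of all genes were called. Against interneurons 2 of 11 were higher and 2 lower, where 31.4% were called, a share near that of the list. Between thalamic-like and other glutamatergic nuclei 4 of 6 were lower and none higher, where 32.9% were called. Of the enzymes that break down or make glycine, Gldc was lower in the subcortical class than in medium spiny neurons (−1.34 ± 0.30, adjusted p = 0.0015) and interneurons (−1.47 ± 0.30, adjusted p = 0.0012), at levels of 0.974 to 2.34 CPM in the former. Between GABA and glutamatergic nuclei 2 of 9 were called, where 4.81% of all genes were. One was Slc32a1, which the division by transmitter itself used. The other, Slc6a5, had 157 UFIs in GABA and 6 in glutamatergic nuclei, a log2 difference of 4.27 ± 0.49 (adjusted p = 2.0e-05). Since Slc32a1, itself on the glycine list, placed nuclei in the GABA set, the Slc6a5 call is not independent of the division either.

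The GABA nuclei with a Slc6a5 UFI numbered 25, from 5 libraries. Of them 2 came from preindex libraries, against 517 of the other 798 GABA nuclei. The 25 nuclei were singled out after the values had been seen. Summed over these nuclei Glra1 had 156 CPM (75 UFIs, Poisson interval 123 to 195) against 28.0 in the other 798 GABA nuclei, and Glrb had 199.5 against 144. Glra2 was 35.3 (20.6 to 56.6) against 84.5 and Glra3 39.5 (23.8 to 61.7) against 71.3. With nuclei spread unevenly over libraries and primers no test was made, and the intervals cover counting error only. Differences by Slc6a5 and by primer cannot be told apart in these sums.

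Storage and primer were compared over all nuclei of each library, with both in 1 model. Between frozen and fresh libraries 0 of the 4 members were called by edgeR (adjusted p from 0.83 to 1.00, none with an unadjusted p under 0.05), where 0.143% of 18211 genes were; DESeq2 called none of the 4 either. Glra1 had 13.7, 19.9, 4.68 and 3.87 CPM in the 4 frozen libraries and 12.8, 11.4 and 7.32 in the 3 fresh ones. Its difference, −0.01 on the log2 scale, was 0.56 (adjusted p = 0.042) without the fresh preindex library, the only alternative under which it was called. Glra2 (37.4 to 43.7), Glra3 (22.9 to 31.6) and Glrb (104.7 to 131) spanned narrower relative ranges over the 7 libraries.

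By primer, 2 of the 4 members were called, both lower in preindex libraries, where 16.8% of genes were called. Glra1 had 11.4 to 19.9 CPM in the 4 libraries without preindex and 3.87 to 7.32 in the 3 with it, without overlap. Such separation was not counted over all genes. The log2 difference was −1.35 ± 0.29 for Glra1 (adjusted p = 0.021) and −0.24 ± 0.07 for Glra3 (adjusted p = 0.046), against 0.03 for Glra2 and −0.12 for Glrb (adjusted p = 0.75 and 0.23). Over all nuclei of a library, fewer nuclei of a type and less RNA per nucleus cannot be told apart. Subcortical nuclei made up 23.5% to 24.0% of the libraries without preindex and 14.1% to 17.5% of those with it, Purkinje-like nuclei numbered 1 to 13 against 0, and Slc6a5 had 1.90 to 8.83 CPM against 0.220 to 0.342. The kidney-tubule-like nuclei were all in frozen preindex libraries and 20 liver-like nuclei in the fresh one.

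Among subcortical neurons alone Glra1 had 44.1 to 67.6 CPM without preindex and 20.5, 26.5 and 37.7 with it, still without overlap. The difference was −0.72 ± 0.21 and was not called by edgeR (adjusted p = 0.074), where 570 of 12970 genes were. How many other genes separated in this way was not counted, so the lack of overlap says little about Glra1 by itself. In the 2007 subcortical nuclei outside the Cdh23 and Tfap2b cluster Glra1 had 41.8 to 63.0 against 20.5 to 37.9. Over all nuclei but the kidney-like and liver-like ones it differed by −1.23 (adjusted p = 0.0066), Glra3 by −0.12 (adjusted p = 0.22) and Glrb by 0.01 (adjusted p = 0.96). Glra3 turned to 0.30 ± 0.08 (adjusted p = 0.062) in subcortical neurons, and over all nuclei it kept its call in 2 of 15 alternatives, the scale of total UFIs and without the fresh preindex library. The Glra1 call over all nuclei was also lost without the first (−1.35, adjusted p = 0.056) or second frozen library without preindex (−1.08, adjusted p = 0.053) and without the first (−1.25, adjusted p = 0.080) or second frozen preindex library (−1.14, adjusted p = 0.075). Without the fresh preindex library the difference was −1.98 (adjusted p = 9.6e-07), and Glrb was then called at −0.23 (adjusted p = 0.0034). On the scale of total UFIs 829 genes were higher and 2362 lower in place of 1495 and 1573, and Glrb was called at −0.20 (adjusted p = 0.035). The part of the subcortical share and of the Slc6a5 level in the primer difference was not tested.

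**Figure D5:**
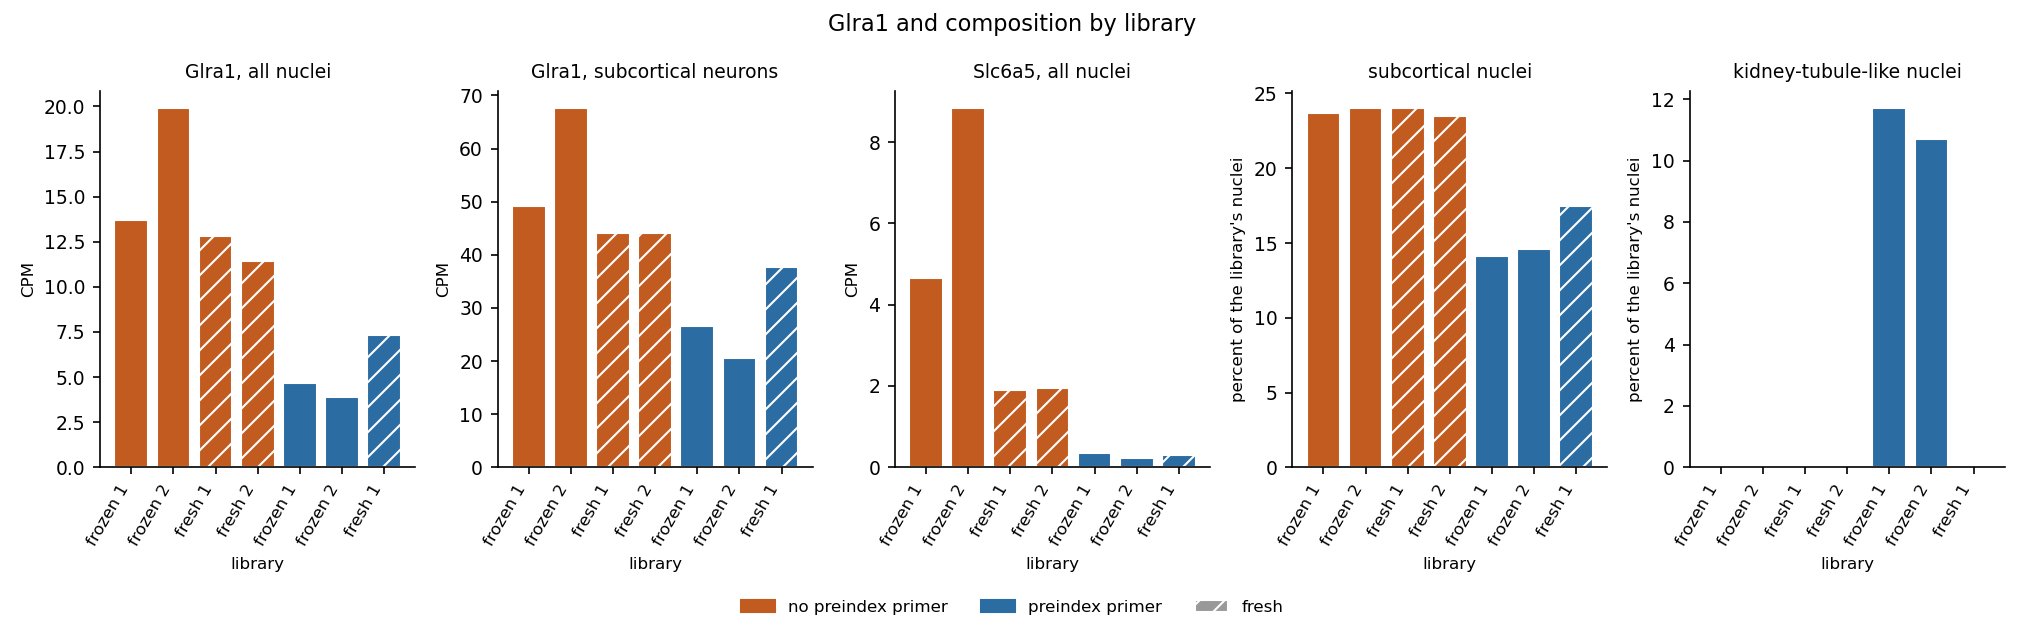
Glra1 in all nuclei and in subcortical neurons, Slc6a5 in all nuclei (CPM) and the share of subcortical and of kidney-tubule-like nuclei (percent of a library's nuclei), 1 bar per library on linear axes from 0; colour gives the primer and hatching fresh tissue. Glra1 over all nuclei is at least 11.4 in the 4 libraries without preindex and at most 7.32 in the others. The subcortical share is 23.5% or more in the former and 17.5% or less in the latter. Among the 4 libraries without preindex Glra1 runs from 11.4 to 19.9 at subcortical shares of 23.5% to 24.0%.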

How the data were processed

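Mouse brain nuclei were profiled by snHH-seq, and the deposited files hold whole-number counts of UFIs per gene and nucleus. Per the labels and the study's methods, the authors trimmed poly-A with cutadapt, selected barcodes by a manual read limit, aligned with STAR (mouse build GRCm38/mm10), kept unique reads, assigned them to whole genes including introns with featureCounts and counted UFIs with UMI-tools; the study describes UFIs as strand-specific, while the tool versions used for the brain files and the counter's strand setting are not given in the sources used here. The human, cell-line and mixing samples of the series were not used here.

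From these counts, all genes but 19 glycine genes were scaled to 10000 per nucleus and log-transformed. The 2000 most variable of them were reduced to 40 principal components, and nuclei were clustered (Leiden, 10 neighbours, resolution 0.4, igraph 0.11.9). A cluster took the class with the largest share of its markers at 10 CPM or more and at least 1.5-fold over the mean of the other clusters. At least 3 markers and 30% of a list were needed. A cluster with 80% or more of 2 lists stayed unnamed unless all such lists were of neurons. No nuclei or doublets were removed. The members and gene lists were chosen with earlier results of these data known. The named genes were the 4 members, 15 glycine genes, 5 genes of like pattern per member and leading genes of clusters. Counts were summed per library and class (at least 10 nuclei) and tested with edgeR 4.0.16 (R 4.3.3), TMM scaling, with the library as a block for classes and storage plus primer for conditions. On simulated counts with known changes, it recovered 86.73% of 98 changes of 2-fold between the subcortical and cortical classes (13751 genes). Between primers it recovered 60.0% of 95 such changes (17847 genes). A further 97 and 99 genes were changed by a log2 of 2. Of its calls on the simulated counts, 5.208% and 7.643% were false. Far fewer genes were changed there than were called in the real comparisons (52.9% and 16.8%), so these rates do not measure false calls in the latter. Alternatives were DESeq2 1.42.0, other scalings, no filter, other class definitions, thinning to 3000 UFIs and each library left out. Sequences and spans came from the GENCODE annotation of GRCm38, read with Biopython 1.88. Depth was 8605214 to 42439731 UFIs per library.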

Additional observations from a re-analysis of the deposited data

Results flagged for a closer look

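Sets of libraries were a subunit gene in a class of nuclei (7 libraries), or in all nuclei of the 4 frozen or the 4 no-preindex libraries. Of 48 such sets, 5 held a library farther from the others than the 95% limit of Dixon's test, where chance gives about 1 in 20. The sets share nuclei and are not independent. Glra1 in interneurons was 3.72 CPM in the first fresh library without preindex and 1.56 to 2.24 in the others. Glrb was 166.2 in thalamic-like nuclei (others 101.3 to 122.1) and 170.3 in subcortical GABA nuclei (others 141.4 to 149.8), both in the first frozen library without preindex. Glra2 in the subcortical class was 55.6 in the second fresh library without preindex (others 73.2 to 78.7). Glra3 in subcortical glutamatergic nuclei was 143.6 in the first frozen preindex library (others 77.5 to 104.3).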

How the results depend on the processing

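Of 436 alternative values of the subunit differences, 365 kept direction and side of the threshold, 38 lost a call, 10 gained one and 23 changed sign. The causes of these changes were not tested. Glra1, Glra3 and, but for 1 alternative, Glra2 kept their calls against cortical and medium spiny neurons, and Glra1 and Glra3 theirs against interneurons. Depth limited the counts of nuclei and, in the smaller groups, every level under 1 CPM. The transmitter division by markers of single nuclei could not be fitted, and the thalamic comparison, the interactions, the scaling to total UFIs, the single-primer and single-storage fits and the fit with unnamed clusters counted as cortical (Glra1 4.86) were chosen after seeing the data.

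Genes called numbered 4834 (marker assignment) and 4007 (thinned nuclei) against cortical neurons in place of 7389, and with thinned nuclei 4096 against medium spiny neurons and 2017 against interneurons. Between GABA and glutamatergic nuclei they were 341 with DESeq2, 214 without the library block and 224 thinned. For thalamic-like nuclei they were 867 with marker assignment, a fit on 6 sums of a library and class in place of 14, and 1446 thinned. For storage they were 323 with DESeq2, 1937 without the filter, 96 in neuron-like nuclei, 14 in subcortical neurons, 44 without kidney-like and liver-like clusters, and 2 to 840 with 1 library left out, the last without the fresh preindex library, in place of 26. For primer they were 4787 without the filter, 570 in subcortical neurons and 998 to 5668 with 1 library left out, the last again without the fresh preindex library, in place of 3068.

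Replicate numbers did not pair the libraries (r of deviations 0.029, −0.060 and −0.021 over 18211 genes). With the replicate block 3 genes were called for storage and 1725 for primer, Glra1 differed by 0.018 for storage, and Glra3 lost its primer call (adjusted p = 0.088).

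Signs changed for Glra2 against interneurons (−0.19 with marker assignment, −0.011 at the finer resolution), Glrb between GABA and glutamatergic nuclei (0.071 thinned), Slc12a2 (−0.21 with marker assignment) and Gphn (0.045 on total UFIs) against medium spiny neurons. For primer they changed for Glra3 (0.30 in subcortical neurons), Glra2 (−0.049 on total UFIs) and Glrb (0.0015 in neuron-like nuclei, 0.0056 without kidney-like and liver-like clusters). For storage, Glra1 was 0.029 in neuron-like nuclei, 0.041 in subcortical neurons, 0.082 without kidney-like and liver-like clusters and −0.30 to 0.56 with 1 library left out. Glrb was −0.0098 with DESeq2, −0.014 with upper-quartile scaling, −0.0025 on total UFIs, −0.024 without the filter and −0.049 to 0.12 with 1 library left out, and Glra2 (−0.029 to 0.067) and Glra3 (−0.014 to 0.088) also changed sign with 1 library left out.

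Marker assignment moved levels in the subcortical class to 57.6 (Glra2) and 44.2 (Glra3), in cortical neurons to 4.30 (Glra1) and 121.2 (Glrb), in medium spiny neurons to 9.44, 45.7, 26.3 and 106.0 for Glra1, Glra2, Glra3 and Glrb, and in interneurons to 12.7 (Glra1) and 23.7 (Glra3). Thinning moved cortical Glra1 to 2.24 and Glra2 to 37.4. Unthinned shares of nuclei with a UFI of Glra1, Glra2, Glra3 and Glrb were 26.9%, 39.6%, 39.1% and 79.3% in the subcortical class, 1.74%, 20.3%, 18.1% and 73.2% in cortical, 1.12%, 20.1%, 5.88% and 59.2% in medium spiny and 3.25%, 34.8%, 11.2% and 71.7% in interneuron nuclei.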

Other observations

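Nuclei of the mixed subcortical cluster with UFIs of both transmitters, or of neither, were in neither arm of the transmitter comparison. Glra1 had 7.98 to 100.1 CPM (median 43.5) in the 154 nuclei with both and 19.4 to 148.3 (median 38.1) in the 143 with neither, the latter in 5 libraries. Glra3 had medians of 66.5 and 62.9, Glra2 of 66.5 and 75.4 and Glrb of 151.4 and 140.4.

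The 30 Purkinje-like nuclei, which came from the 4 libraries without preindex, held 10 UFIs of Glra1, 4 of Glra2, 4 of Glra3 and 98 of Glrb. In the 2 libraries with at least 10 such nuclei Glra1 was 3.21 and 17.0 CPM and Glrb 77.0 and 123.7. The 105 oligodendrocyte-precursor-like nuclei had 82.0 to 166.3 for Glrb in 5 libraries, and their Glra1 level was 0 in 4 of these and 24.4 in the second frozen library without preindex.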
